A study of Mus musculus with 31 samples.

Results

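The genes described here make, regulate and export the cell's cholesterol and fatty acids. They were chosen by symbol as a fixed list of 34 genes out of the 24421 in the deposited table, and all 34 were found and passed the filter on low counts. The list holds 18 enzymes of the sterol pathway and 2 other target genes of the transcription factor SREBP2, Insig1 and Stard4. These 20 are called the sterol genes below. It also holds 3 regulators (Srebf1, Srebf2 and Scap), 8 genes of fatty acid synthesis and 3 target genes of the liver X receptors (LXR), Abca1, Abcg1 and Mylip.

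SREBP2, encoded by Srebf2, is made as a membrane protein of the endoplasmic reticulum. When sterols are scarce, its escort Scap carries it to the Golgi, where it is cut and released to switch on the enzymes of cholesterol synthesis. Insig1 holds the complex back when sterols are plentiful. SREBP1, encoded by Srebf1, acts mainly on genes of fatty acid synthesis. LXR are nuclear receptors that bind oxidised sterols and switch on cholesterol export, so their targets are used as a readout of sterol surplus. Cardiac fibroblasts, which lay down the heart's matrix, use both branches to build membrane.

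RNA was sequenced from primary fibroblasts of C57Bl/6 mouse hearts (8 to 12 weeks of age) with no drug treatment and no genetic change named in the labels. There were 29 libraries in 10 groups, with 3 in each group but 3D-2D, which had 2. The groups were a flat layer (2D), a 3D arrangement, 3D-2D, 3D-2D-3D and 3D-2D-2D, which are read here as successive arrangements, 2D-5days and 3D-5days, and flat layers on substrates of 0.5, 8 and 64 kPa. How long the groups other than the 5-day ones were cultured, what the 3D culture was made of and how many mice went into a library are not stated.

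The gene counts of a library came to between 8509987 and 29909400. Nothing in the labels says that libraries of a group are separate cultures, so p-values speak only of the spread among the libraries sequenced, and that spread may be technical. Library 3 of 2D, 3D, 3D-2D-3D and each substrate and library 1 of each 5-day group stood apart from the other libraries of their group, and values with and without them are given where they matter. Fibroblast markers (9 genes, among them Col1a1, Pdgfra and Dcn) summed to at least 11825 CPM in every library, and none of them was at 0 in a whole group. Their sums differed between groups, from 14746 and 15456 CPM in 3D-2D to between 65556 and 71543 CPM in 3D-2D-2D. They also differed within groups, at 35437, 33605 and 13810 CPM in 2D. Library 3 was the lowest on each substrate, at 13619, 11825 and 13103 CPM on 0.5, 8 and 64 kPa. Macrophage markers (21 genes, none at 0 in every library of a group) were present in all groups and varied most within 3D, as given beside the LXR targets. Adipocyte markers (7 genes) summed to at most 88.3 CPM, with Lep at 0 in every library, endothelial markers (8 genes) to at most 105 CPM and cardiomyocyte markers (7 genes) to at most 207 CPM. Smooth muscle and pericyte markers (5 genes) summed to 111 to 176 CPM in 3D-2D-3D and to at most 39.1 CPM in every other group. In these bulk samples fewer cells of a type and less RNA per cell cannot be told apart. Values below are CPM, the counts scaled by each library's total and its TMM factor. Fold changes are log2 ± standard error from edgeR's quasi-likelihood test, fitted over all 14036 genes that passed the filter, with n = 3 libraries per group (2 in 3D-2D). A gene was called at a Benjamini-Hochberg adjusted p under 0.05.

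The sterol genes share a feature of their promoters that played no part in their choice. The 250 bases before a RefSeq start (build GRCm38.p6, the mm10 sequence) were searched on both strands in the 26 members with such an entry. The box CCAAT, bound by NF-Y, a general factor that works beside SREBP at sterol promoters, was in 15 of 16 sterol genes, against 39.92% of 10597 tested genes with an entry. Acat2, which fell in 3D, was the gene without it. The box was also in Mvd, Tm7sf2, Ebp and Hsd17b7, sterol genes not called between 3D and 2D. It was in the LXR target Mylip, which rose, and in 2 of the 3 regulators. The Sp1 box GGGCGG was in 15 of the 16 sterol genes, against 62.59%. The sterol regulatory element written as TCACNCCAC was in Hmgcs1 alone, 137 bases before the start, against 1.293% of tested genes. Of 5 fatty acid genes with an entry, 1 (Fasn) held CCAAT and 2 held the Sp1 box. The DR4 element of LXR (a direct repeat of AGGTCA with a spacer) was in none of the members' windows and in none of the tested genes' windows. A match is a description of letters only, and a missing match says nothing of a factor. The windows of 4 sterol genes that fell in 3D and of 1 fatty acid gene that fell without either box are shown 5′ to 3′ on the gene's strand, with CCAAT (or its reverse complement ATTGG) and the sterol element in capitals.
Hmgcs1 (chr13:119690101-119690350, plus strand): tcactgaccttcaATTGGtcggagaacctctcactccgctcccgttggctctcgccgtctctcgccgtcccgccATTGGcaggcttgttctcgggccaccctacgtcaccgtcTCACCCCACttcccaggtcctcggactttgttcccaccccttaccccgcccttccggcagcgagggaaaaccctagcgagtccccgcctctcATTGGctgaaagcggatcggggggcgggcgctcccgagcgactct
Mvk (chr5:114444019-114444268, plus strand): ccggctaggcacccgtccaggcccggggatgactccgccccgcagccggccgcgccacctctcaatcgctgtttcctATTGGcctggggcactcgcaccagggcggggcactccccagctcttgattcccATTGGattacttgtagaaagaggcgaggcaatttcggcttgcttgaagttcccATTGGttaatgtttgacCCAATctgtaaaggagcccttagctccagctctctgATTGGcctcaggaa
Idi1 (chr13:8885356-8885605, plus strand): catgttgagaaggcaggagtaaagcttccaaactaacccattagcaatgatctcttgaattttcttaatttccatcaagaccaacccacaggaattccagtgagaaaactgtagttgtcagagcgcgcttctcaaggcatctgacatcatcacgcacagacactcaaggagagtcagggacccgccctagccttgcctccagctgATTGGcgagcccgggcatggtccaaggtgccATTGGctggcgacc
Cyp51 (chr5:4104698-4104947, minus strand): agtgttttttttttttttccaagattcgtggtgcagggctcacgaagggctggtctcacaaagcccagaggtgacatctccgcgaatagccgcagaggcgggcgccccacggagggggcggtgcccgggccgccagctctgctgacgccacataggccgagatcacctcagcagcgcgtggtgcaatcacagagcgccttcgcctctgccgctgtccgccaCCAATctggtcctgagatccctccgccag
Elovl6 (chr3:129532136-129532385, plus strand): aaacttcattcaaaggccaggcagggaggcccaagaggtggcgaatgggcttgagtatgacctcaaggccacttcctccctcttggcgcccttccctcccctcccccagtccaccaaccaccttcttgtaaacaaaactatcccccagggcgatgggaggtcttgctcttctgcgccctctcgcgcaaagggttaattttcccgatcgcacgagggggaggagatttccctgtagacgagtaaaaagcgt
Hmgcs1 carries 3 boxes and the sterol element between them, Mvk 5 boxes, Idi1 2 within the last part of the window, and Cyp51 1 close to the start. The window of Elovl6 holds none of the motifs searched.

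The level of the sterol genes as a group ordered the cultures as follows, by the geometric mean CPM of the 20 genes in each library. The highest levels were in 3D-2D-2D, at 121, 119 and 118, and in 2D-5days, at 76.1, 137 and 134. The 2D libraries were at 48.6, 48.8 and 20.3, with library 3 low, and the 3D-2D libraries at 27.1 and 34.5. The 9 substrate libraries lay between 20.1 and 33.9, a range that holds 2D library 3 and overlaps 3D-2D. The lowest were 3D-5days at 18.4, 18.1 and 19.5, 3D-2D-3D at 16.5, 16.1 and 12.4 and 3D at 15.5, 13.6 and 15.1. The last 2 of these overlapped each other, and no 3D, 3D-2D-3D or 3D-5days library reached the lowest library of any group that ended in 2D.

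**Figure D1:**
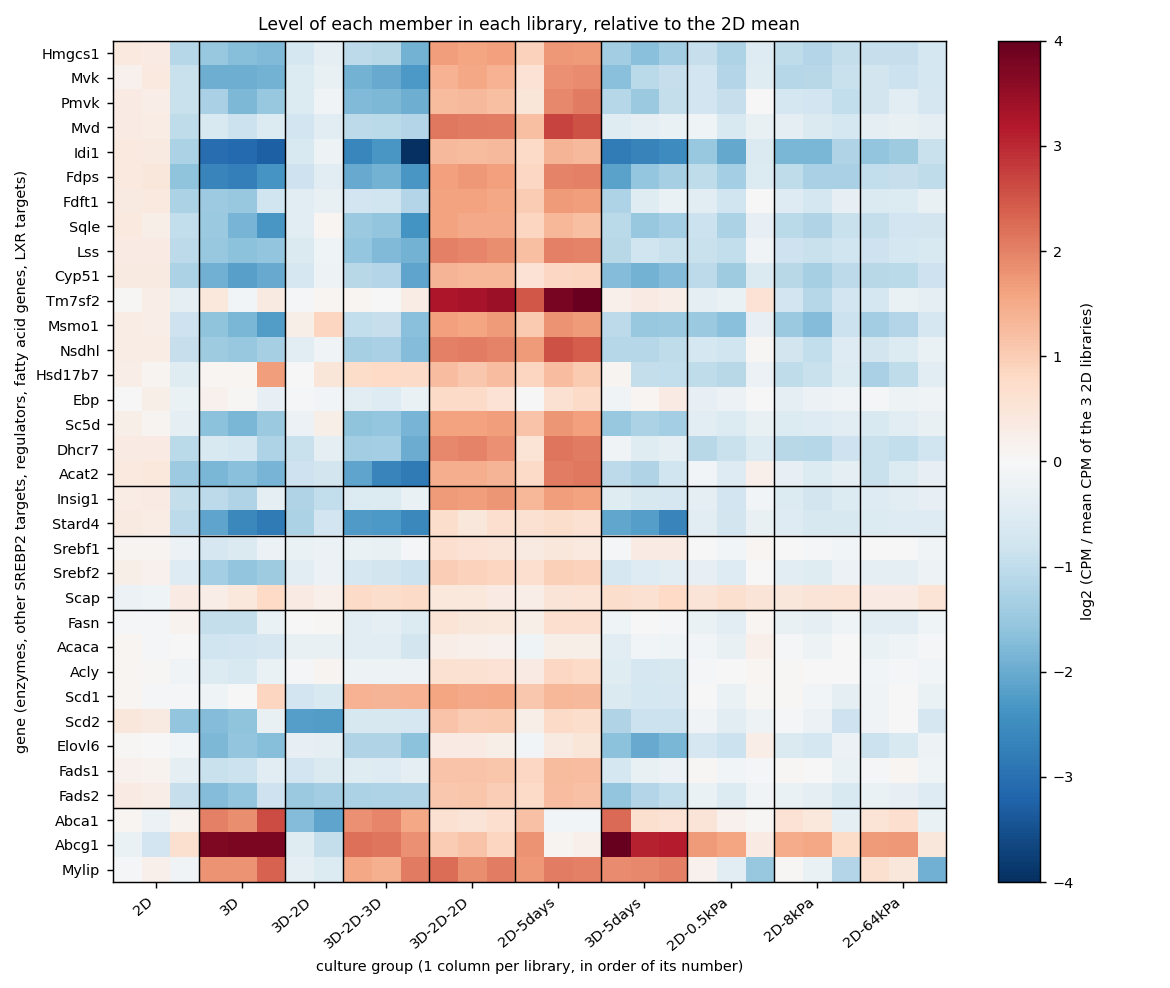
Level of each of the 34 genes (rows, grouped by role) in each of the 29 libraries (columns, grouped by culture), as log2 of CPM over the mean of the 3 2D libraries; values beyond 4 take the end colour. Most sterol genes are blue in 3D, 3D-2D-3D and 3D-5days and red in 3D-2D-2D and 2D-5days, while the LXR targets Abca1 and Abcg1 are red in each 3D library.

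**Figure D2:**
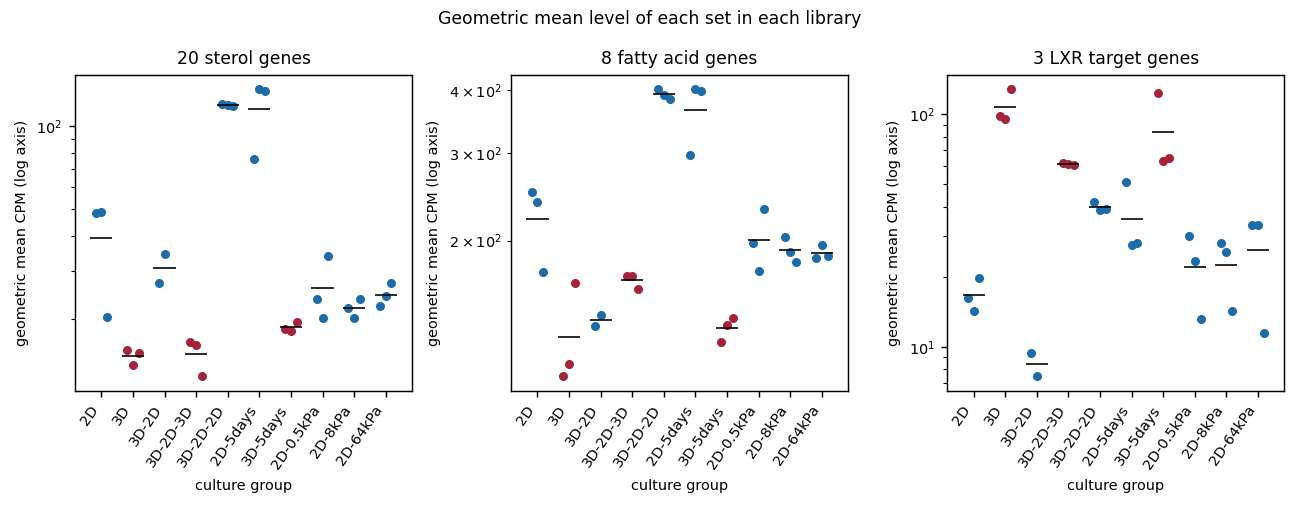
Geometric mean CPM (log axis) of the sterol, fatty acid and LXR target genes in each library (points) of each culture group (horizontal axis). The sterol genes lie between 118 and 121 in 3D-2D-2D and between 12.4 and 16.5 in 3D-2D-3D, a wider span than that of the fatty acid genes in the same groups.

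The first comparison set 3D against 2D. Cholesterol synthesis genes were lower in 3D at most steps from acetoacetyl-CoA to cholesterol, and cholesterol export genes were higher. Of the 20 sterol genes 16 fell and 0 rose, with a median log2 fold change of -1.60, while 27.3% of all tested genes fell, 26.7% rose and the median of all was 0.03. In 13 of the 20 the 3D libraries all lay below the 2D libraries, which held for 28.8% of all genes. Between these cultures all 3 LXR targets rose, each with no overlap between libraries (27.5% of all genes in that direction), and 7 fatty acid genes of 8 fell.

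Idi1, which isomerises isopentenyl pyrophosphate, the building block of sterols, was at 88.4, 86.05 and 27.8 CPM in 2D and 8.13, 7.78 and 7.08 CPM in 3D. All 3D libraries were below all 2D libraries, and 2D library 3 was the lowest of its group. The fold change was -3.13 ± 0.42 (adjusted p = 2.85e-06). Fdps, which joins these blocks into farnesyl pyrophosphate, was at 129, 134 and 32.6 CPM in 2D and 15.8, 14.9 and 19.3 CPM in 3D. The groups again did not overlap, and the gap was narrow for 2D library 3. Its change was -2.56 ± 0.38 (adjusted p = 8.34e-06). Cyp51, which removes a methyl group of lanosterol, was at 159, 158 and 51.5 CPM in 2D and 32.6, 26.98 and 30.6 CPM in 3D. The 3D libraries were alike and all lower, with a change of -2.02 ± 0.30 (adjusted p = 9.52e-06). Stard4, a carrier that moves cholesterol between membranes and a target of SREBP2, was at 40.1, 37.6 and 15.1 CPM in 2D and 7.16, 5.21 and 4.37 CPM in 3D. No 3D library reached the lowest 2D library, and the change was -2.47 ± 0.26 (adjusted p = 5.62e-08).

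Early steps fell as well. Hmgcs1, which makes HMG-CoA, changed by -1.66 ± 0.29, the mevalonate kinase Mvk by -1.92 ± 0.29 and the next kinase Pmvk by -1.51 ± 0.33. Fdft1, the squalene synthase, changed by -1.20 ± 0.32, Sqle, the squalene epoxidase and a rate-limiting step, by -1.85 ± 0.30, and Lss, which closes the sterol rings, by -1.57 ± 0.27. After lanosterol, Msmo1 (-1.87 ± 0.35), Nsdhl (-1.41 ± 0.27) and Sc5d (-1.63 ± 0.16) were called, and Dhcr7, the last enzyme of one route to cholesterol, was called at -0.83 ± 0.33. Acat2, a thiolase that starts the pathway, changed by -1.76 ± 0.36. The 4 that were not called were Mvd (-0.65 ± 0.29), Tm7sf2 (0.26 ± 0.28), Ebp (-0.02 ± 0.16) and Hsd17b7 (0.83 ± 0.36), of which Hsd17b7 was at 60.7, 59.8 and 184 CPM in the 3D libraries. Insig1, which holds the SREBP2 complex back when sterols are plentiful, was called lower at -0.82 ± 0.24, and its libraries overlapped between the groups.

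How far the sterol genes fell differed between libraries, as 2D library 3 held less of them. With libraries 1 and 2 alone 17 sterol genes fell (25.9% of all genes did) and 0 rose, with a median of -1.89. With library 3 of each group alone 4 fell and 1 rose, with a median of -0.57. Of all genes 17.3% fell and 17.2% rose in that fit, so the count of 4 of 20 was near the background. That fit has 1 library per group, with a spread assumed to be that of the other groups. Idi1, Sqle, Sc5d and Stard4 fell in library 3 alone, at -1.95, -1.33, -1.07 and -1.76, and Hsd17b7 rose, at 2.18. Fdft1 and Insig1 were above zero there, at 0.50 and 0.59, not called. Fdft1 shares part of its span with Ctsb on the annotation, and reads of such neighbours cannot be told apart without the strand. Fitted on the 2D and 3D libraries alone, 13 sterol genes fell (22.1% of all genes), with Fdft1 (-1.20), Dhcr7 (-0.82) and Insig1 (-0.82) not called. With the replicate number added to that fit as a block, 10 fell (20.7% of all genes), and Fdps (-2.35), Fdft1 (-1.10), Nsdhl (-1.31), Dhcr7 (-0.72), Acat2 (-1.57) and Insig1 (-0.77) missed the threshold. Dhcr7 also missed it with DESeq2-type size factors (-0.80), library totals alone (-0.70) or no filter (-0.78), and without 2D library 1 (-0.62), 2D library 2 (-0.62), 3D library 2 (-0.89) or 3D library 3 (-0.67).

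**Figure D3:**
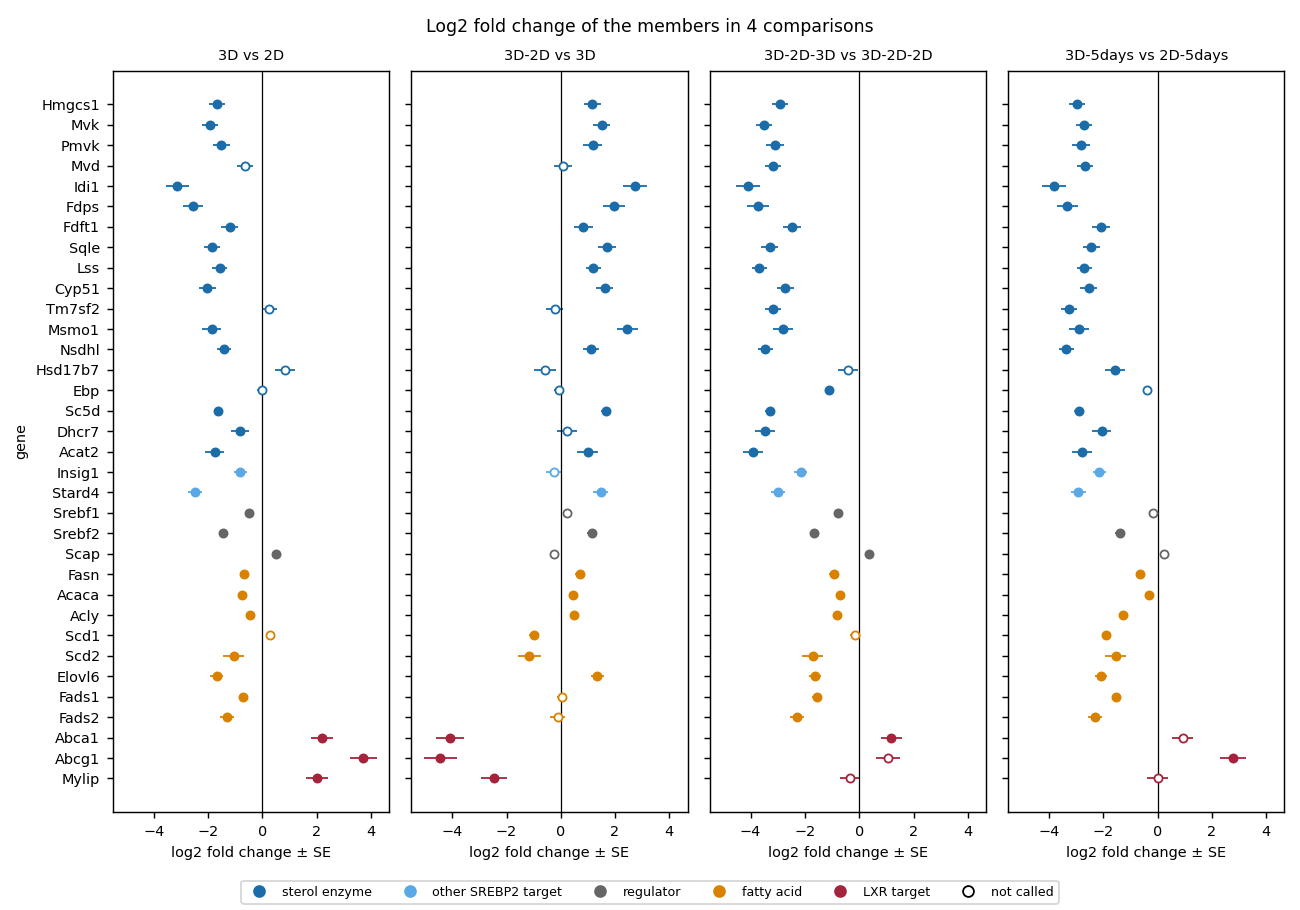
Log2 fold change ± standard error (horizontal axis) of each of the 34 genes in 4 comparisons (panels), coloured by role; open points were not called. Of the 20 sterol genes, 18 lie left of zero in 3D vs 2D (16 called) and all 20 do in 3D-2D-3D vs 3D-2D-2D and 3D-5days vs 2D-5days (19 called in each), while 16 lie right of zero in 3D-2D vs 3D (14 called).

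Proliferation genes moved in the same comparison. The 8 genes of that panel (Mki67, Top2a, Ccnb1, Cdk1, Cdc20, Rrm2, Cenpf and Birc5) summed to between 1065 and 1264 CPM in 2D and between 20.2 and 115 CPM in 3D, and all 8 fell. Their part in the fall of the sterol genes was not tested. Across the groups the 2 panels did not keep 1 order. In 3D-2D-2D and 2D-5days, where the sterol genes were highest, the proliferation panel summed to between 137 and 140 CPM and between 119.8 and 152 CPM, below each 2D library. On the substrates it summed to between 616 and 1554 CPM, with sterol levels below those of 2D libraries 1 and 2.

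**Figure D4:**
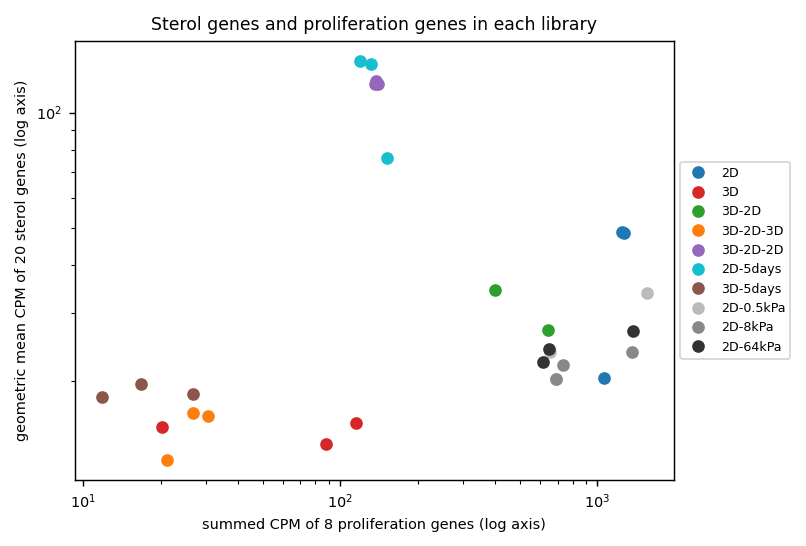
Geometric mean CPM of the 20 sterol genes (vertical, log axis) against the summed CPM of 8 proliferation genes (horizontal, log axis), 1 point per library, coloured by culture group. The 3D-2D-2D and 2D-5days libraries lie at the top with proliferation sums below 152 CPM, and the 2D libraries lie lower with sums of 1065 CPM or more.

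Among the regulators, Srebf2 was at 248, 236 and 146 CPM in 2D and 81.3, 69.9 and 77.9 CPM in 3D. The 3D libraries were all lower, and the change was -1.46 ± 0.15 (adjusted p = 7.64e-08), with -0.89 in library 3 alone, also called. Srebf1 was at 169.9, 171 and 135 CPM in 2D and 98.9, 105 and 135 CPM in 3D. Library 3 was at about the same level in both groups. Its change of -0.49 ± 0.11 (adjusted p = 0.00113) was not called with the 2 groups alone (-0.48) or with the block (-0.48) and was 0.02 in library 3 alone. Scap, the escort of both factors, was at 78.6, 81.9 and 118 CPM in 2D and 113, 123 and 161 CPM in 3D. It was higher in 3D by 0.51 ± 0.13 (adjusted p = 0.00221), with 2D library 3 inside the 3D range, and was not called with the 2 groups alone (0.52). The counts do not tell the transcripts of Srebf1 apart.

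Fatty acid genes fell less than sterol genes, with a median of -0.73 over the 8, and the difference between the 2 medians was not tested. Elovl6, which extends saturated fatty acids, was at 55.2, 54.03 and 49.5 CPM in 2D and 15.2, 17.8 and 16.2 CPM in 3D. Library 3 was close to the others in both groups. The change was -1.69 ± 0.23 (adjusted p = 2.08e-06), and -1.59 in library 3 alone. Fads2, the first desaturase of polyunsaturated fatty acids, was at 167, 159.6 and 70.5 CPM in 2D and 39.8, 45.5 and 74.7 CPM in 3D. Here library 3 of both groups was alike, and the change of -1.31 ± 0.25 (adjusted p = 0.000125) was 0.10 in library 3 alone and -1.28 with the block, not called in either. Scd2, a desaturase that makes monounsaturated fatty acids, was at 1503, 1394 and 364 CPM in 2D and 329.6, 354 and 881 CPM in 3D. Libraries 1 and 2 were lower in 3D and library 3 was higher.

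The change of Scd2 over all libraries was -1.06 ± 0.37 (adjusted p = 0.021), and it was -2.08 in libraries 1 and 2 and 1.29 in library 3, called in both with opposite signs. It was -1.06 with the 2 groups alone and -1.06 with the block, not called in either. It also missed the threshold without 2D library 1 (-0.75) or 2 (-0.84) or 3D library 1 (-0.82) or 2 (-0.84), and was -1.69 without 3D library 3. The synthase Fasn (-0.68 ± 0.16), the carboxylase Acaca (-0.75 ± 0.12), the citrate lyase Acly (-0.46 ± 0.11) and the desaturase Fads1 (-0.71 ± 0.15) fell. With the block Acly (-0.45) and Fads1 (-0.70) were not called, which left 3 of 8 (6 of 8 with the 2 groups alone). Scd1, the other desaturase of its kind, was at 236, 211 and 216 CPM in 2D and 197, 219.9 and 397 CPM in 3D and was not called (0.30 ± 0.17). In library 3 alone Scd1 was called higher, at 0.89.

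The LXR targets rose together. Abca1, the pump that loads cholesterol onto apolipoprotein A-I, was at 119, 96.3 and 123 CPM in 2D and 459.7, 409 and 683 CPM in 3D. The change was 2.20 ± 0.40 (adjusted p = 0.000104). Abcg1, which hands cholesterol to high-density lipoprotein, was at 5.91, 4.18 and 11.1 CPM in 2D and 94.8, 95.8 and 95.4 CPM in 3D. The 3 3D libraries were nearly equal and all above 2D, with a change of 3.72 ± 0.49 (adjusted p = 1.97e-06). Mylip, a ubiquitin ligase that limits cholesterol uptake, was at 6.07, 7.26 and 5.71 CPM in 2D and 22.04, 21.9 and 32.6 CPM in 3D, a change of 2.01 ± 0.40 (adjusted p = 0.000248). In each of the 3 genes every 3D library was above every 2D library, and each was called with the block and in library 3 alone, at 2.49 for Abca1, 3.12 for Abcg1 and 2.53 for Mylip.

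Macrophages are rich in Abca1 and Abcg1, and their markers were uneven between these libraries. The 21 macrophage markers summed to 9195, 6451 and 248 CPM in the 3D libraries and to 1344, 1434 and 1692 CPM in 2D. In 3D library 3, where the markers were below every 2D library, Abcg1 was at 95.4 CPM and Abca1 at 683 CPM, as high as in the other 3D libraries or higher. The 3D-2D-3D libraries had marker sums of 262 to 289 CPM and Abca1 levels of 398, 438 and 333 CPM. Their Abcg1 levels were 24.9 to 32.3 CPM, below the 94.8 to 95.8 CPM of the 3D libraries. At 5 days library 1 was highest in each group for both the markers (3259.5 CPM in 2D-5days and 12474 CPM in 3D-5days) and Abcg1 (24.4, 7.58 and 8.14 CPM in 2D-5days and 151, 59.4 and 61.96 CPM in 3D-5days). The part of macrophages in the levels of the LXR targets was not tested.

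**Figure D5:**
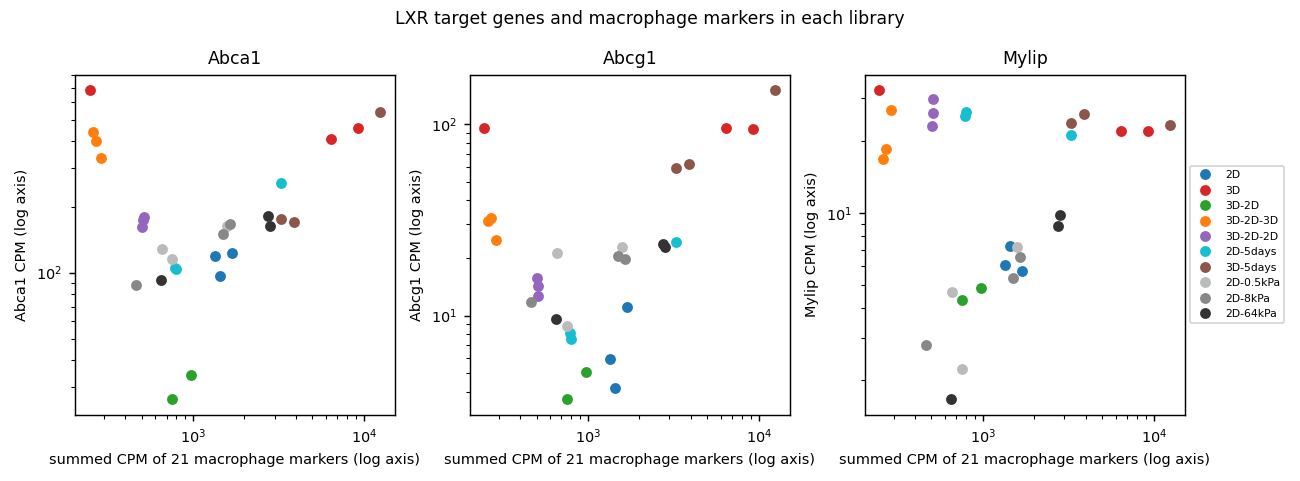
CPM of Abca1, Abcg1 and Mylip (vertical, log axis, 1 panel each) against the summed CPM of 21 macrophage markers (horizontal, log axis), 1 point per library, coloured by culture group. The 3D-2D-3D libraries and 3D library 3 lie at the left, with marker sums of 248 to 289 CPM, and have Abca1 levels between 333 and 683 CPM. Abcg1 lies between 24.9 and 32.3 CPM in 3D-2D-3D and between 94.8 and 95.8 CPM in 3D.

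The other genes of the pathway, a list of 35 with all 35 tested, did not share 1 direction in this comparison. In 3D 14 rose and 9 fell, against 26.7% and 27.3% of all genes, so the count that fell was near the background. The largest changes were in 4 genes. Cyp27a1, which makes an oxysterol, rose by 2.64 ± 0.33, Lpin1, a phosphatidate phosphatase, by 2.38 ± 0.19, Nceh1, a cholesterol ester hydrolase, by 1.94 ± 0.53, and Lipa, the lysosomal acid lipase, by 1.83 ± 0.35. Nceh1 was not called with the replicate block (1.79). Macrophage markers summed to 9195, 6451 and 248 CPM in 3D and 1344, 1434 and 1692 CPM in 2D. Their part in these changes was not tested.

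The next comparisons followed cells from 3D to 2D, and share the 3D and 2D libraries with the first. In 3D-2D against 3D 14 sterol genes rose and 0 fell, with a median of 1.17, while 28.8% of all genes rose and 27.7% fell. Idi1 was at 44.4 and 58.6 CPM, Fdps at 55.1 and 73.6, Cyp51 at 77.7 and 106 and Stard4 at 12.8 and 18.01 CPM in the 3D-2D libraries. Each lay above all 3D libraries, at 2.75 ± 0.44 (adjusted p = 2.22e-05) for Idi1, 1.95 ± 0.40 (adjusted p = 0.0003) for Fdps, 1.61 ± 0.32 (adjusted p = 0.000246) for Cyp51 and 1.47 ± 0.27 (adjusted p = 9.32e-05) for Stard4. These genes were picked by their fall in 3D vs 2D, which used the same 3D libraries, so their rise from 3D is partly built in. Msmo1, a demethylation enzyme of the pathway, rose by 2.45 ± 0.38. The 6 not called were Mvd (0.08 ± 0.32), Tm7sf2 (-0.22 ± 0.31), Hsd17b7 (-0.58 ± 0.41), Ebp (-0.05 ± 0.18), Dhcr7 (0.22 ± 0.37) and Insig1 (-0.27 ± 0.26). Proliferation genes rose as well, all 8, to sums of 399 and 639 CPM, and their part in the result was not tested. Fdft1 (0.83 ± 0.35) missed the threshold without any 1 of 3D libraries 1 (0.72) and 2 (0.70) or 3D-2D libraries 1 (0.91) and 2 (0.76). Acat2 (0.997 ± 0.39) missed it without any 1 of the 5 libraries, at 0.95 to 1.06, and Pmvk (1.18 ± 0.35) without 3D-2D library 2 (0.98). Fdft1 and Acat2 were not called with library totals alone (0.69 and 0.86) or no filter (0.79 and 0.95) either, nor Fdft1 with DESeq2-type size factors (0.79).

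Srebf2, at 158 and 179.6 CPM in 3D-2D, rose with the sterol genes (1.15 ± 0.17, adjusted p = 5.65e-06), and Srebf1 (0.23 ± 0.13) and Scap (-0.24 ± 0.15) were not called. Of the 8 fatty acid genes 4 were higher and 2 lower, against 28.8% and 27.7% of all genes, so the count that fell was near the background. Elovl6 (1.35 ± 0.24), Fasn (0.69 ± 0.17), Acly (0.48 ± 0.12) and Acaca (0.44 ± 0.13) rose. Both stearoyl-CoA desaturases fell, Scd1 to 129.5 and 144 CPM (-0.99 ± 0.19, adjusted p = 0.000178) and Scd2 to 235 and 233 CPM (-1.16 ± 0.43, adjusted p = 0.0266). Neither was called with the 2 groups alone (Scd1 -0.99 and Scd2 -1.15), nor was Fasn (0.69), and Acaca was not with library totals alone (0.30). Scd2 missed the threshold without 3D library 3 (-0.54), 3D-2D library 1 (-1.17) or 3D-2D library 2 (-1.14).

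All 3 LXR targets fell on the move to 2D. Abca1 was at 34.2 and 26.4 CPM in 3D-2D (-4.09 ± 0.52, adjusted p = 1.26e-06), Abcg1 at 5.05 and 3.66 CPM (-4.44 ± 0.60, adjusted p = 2.87e-06) and Mylip at 4.85 and 4.31 CPM (-2.47 ± 0.48, adjusted p = 0.000159). These were the lowest levels of Abca1 in any group. Macrophage markers summed to 755 and 979 CPM in 3D-2D, above 3D library 3 and below 3D libraries 1 and 2, and 13 of the 21 fell. Of the 35 other pathway genes 16 fell and 8 rose, against 27.7% and 28.8% of all genes. The largest changes were in Cyp27a1 (-3.65 ± 0.40), Lpin1 (-3.01 ± 0.23), Nceh1 (-2.35 ± 0.63) and Acacb, a mitochondrial acetyl-CoA carboxylase (-2.23 ± 0.28). The part of macrophages in these changes was not tested.

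Against 2D cells that had not been in 3D, few sterol genes of 3D-2D were called. Of the 20 genes 2 were lower and 0 higher, against 7.54% and 6.85% of all genes, with a median of -0.37. The 2 were Insig1 (-1.09 ± 0.27, adjusted p = 0.0107) and Stard4 (-0.997 ± 0.28, adjusted p = 0.0189). With libraries 1 and 2 alone, which leaves out the low 2D library 3, 10 sterol genes fell (13.1% of all genes did) and the median was -0.75. Scd2 (-2.22 ± 0.45, adjusted p = 0.00307), Fads2 (-1.43 ± 0.28), Scd1 (-0.69 ± 0.19) and Fads1 (-0.66 ± 0.17) were lower among the fatty acid genes, and Abca1 among the LXR targets (-1.90 ± 0.47, adjusted p = 0.0103). With the 2 groups alone Insig1 (-1.11), Stard4 (-1.02), Scd2 (-2.24), Fads1 (-0.68) and Fads2 (-1.45) were not called. Without 3D-2D library 2, which leaves 1 library in that arm with a spread assumed to be that of the other groups, none of these 7 was called. Insig1 was then at -1.19, Stard4 at -1.26, Scd1 at -0.77, Scd2 at -2.21, Fads1 at -0.75, Fads2 at -1.49 and Abca1 at -1.73. Without 3D-2D library 1 Insig1 (-1.01), Stard4 (-0.79), Scd1 (-0.63), Fads1 (-0.59) and Abca1 (-2.11) were not called. Without 2D library 1 Insig1 (-0.92), Stard4 (-0.76), Scd1 (-0.65) and Fads1 (-0.57) were not, and without 2D library 2 Insig1 (-0.88), Stard4 (-0.83) and Fads1 (-0.58) were not. Of the other pathway genes 1 rose, the cholesterol-esterifying Soat1 (1.24 ± 0.37), and 4 fell, led by Gpam (-1.20 ± 0.32), Acacb (-0.92 ± 0.27) and Lpin1 (-0.63 ± 0.21). Soat1 (1.01 to 1.42), Gpam (-1.27 to -1.01) and Acacb (-1.13 to -0.72) were not called without any 1 of 2D libraries 1 and 2 and the 2 3D-2D libraries, and Lpin1 (-0.81 to -0.48) not without any 1 of the 5.

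The widest differences in sterol genes lay between cells with a second 3D phase and cells with a further 2D phase after the same first steps. In 3D-2D-3D 19 of 20 sterol genes were lower than in 3D-2D-2D and 0 were higher, with a median of -3.18, while 20.6% of all genes were lower, 19.8% higher and the median of all was -0.01. Scaled by library totals alone, 4747 genes were higher and 1893 lower, with the sterol genes still at 0 higher and 19 lower. In all 20 the 2 groups of libraries did not overlap, which held for 32.4% of all genes in that direction. Idi1 was at 11.02, 13.3 and 4.29 CPM in 3D-2D-3D and 167, 161 and 165 CPM in 3D-2D-2D, a change of -4.11 ± 0.44 (adjusted p = 2.03e-07). The 3D-2D-2D libraries were almost equal, and library 3 of 3D-2D-3D was lower than its neighbours. Fdps was at 24.4, 26.6 and 19.8 against 309, 325 and 305 CPM (-3.73 ± 0.39, adjusted p = 1.81e-07). Cyp51 was at 57.1, 54.8 and 28.7 against 312, 308 and 309 CPM (-2.72 ± 0.31, adjusted p = 4.65e-07). Stard4 was at 6.38, 6.31 and 5.19 against 49.95, 42.6 and 49.3 CPM (-2.99 ± 0.26, adjusted p = 7.91e-09). With libraries 1 and 2 of 3D-2D-3D the count was again 19 lower (18.4% of all genes) and 0 higher, with a median of -3.10. Smooth muscle and pericyte markers summed to 111, 113 and 176 CPM in 3D-2D-3D and to 15.4, 11.9 and 14.4 CPM in 3D-2D-2D, with 1 of the 5 called higher and 2 lower. Fibroblast markers summed to 15688 to 22994 CPM in 3D-2D-3D and 65556 to 71543 CPM in 3D-2D-2D, with 0 of the 9 called higher and 5 lower. Proliferation sums were 21.1 to 30.6 CPM in 3D-2D-3D and 137 to 140 CPM in 3D-2D-2D, and the part of these lists in the result was not tested.

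Several genes with small differences between 3D and 2D were called here. Tm7sf2, a reductase of the sterol ring, was at 3.38, 3.27 and 3.93 CPM in 3D-2D-3D, a level like that in 2D (3.33, 3.86 and 2.43 CPM), and at 30.2, 31.7 and 34.02 CPM in 3D-2D-2D (-3.18 ± 0.29, adjusted p = 1.44e-08). Its span overlaps that of Vps51. Mvd, which makes isopentenyl pyrophosphate, changed by -3.18 ± 0.30, Ebp, a sterol isomerase, by -1.11 ± 0.17 and Dhcr7, called at a small size there, by -3.47 ± 0.36. Hsd17b7, a ketoreductase of the pathway, was the 1 not called (-0.42 ± 0.36), and its libraries in 3D-2D-3D (96.01, 99.05 and 96.6 CPM) still lay below those in 3D-2D-2D (136, 121 and 135 CPM). Insig1 was at 85.8, 85.7 and 105 against 411, 397 and 429 CPM (-2.16 ± 0.24, adjusted p = 3.53e-07).

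Srebf2 was at 132, 127 and 116 CPM in 3D-2D-3D and 412, 394 and 381 CPM in 3D-2D-2D, a fall (-1.66 ± 0.15, adjusted p = 2.45e-08), and Srebf1 fell from 255, 236 and 229 to 133, 130.1 and 152 CPM (-0.79 ± 0.11, adjusted p = 9.38e-06). Scap, at 156, 149.9 and 159 against 123, 124 and 116 CPM, was higher (0.36 ± 0.13, adjusted p = 0.0313), and was not called without 3D-2D-3D library 1 (0.36) or 3 (0.35) or 3D-2D-2D library 1 (0.37), 2 (0.38) or 3 (0.33). Of the fatty acid genes 7 of 8 fell, with a median of -1.26, against 20.6% of all genes. Fads2 changed by -2.30 ± 0.25 (from 281, 286 and 264 to 55.01, 56.7 and 57.1 CPM), Scd2 by -1.72 ± 0.38 and Elovl6 by -1.64 ± 0.23 (from 67.1, 66.1 and 62.8 to 22.9, 22.8 and 17.1 CPM). Scd1 was high in both groups, at 579.8, 564.1 and 585 and 659.7, 639 and 643 CPM, and was not called (-0.17 ± 0.17).

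The LXR targets did not share 1 direction. Abca1 was at 398, 438 and 333 against 174, 162 and 180.0 CPM and was called higher (1.18 ± 0.39, adjusted p = 0.0196), but not without 3D-2D-3D library 2 (1.10) or 3D-2D-2D library 1 (1.19) or 2 (1.14). Abcg1, at 32.3, 31.4 and 24.9 against 14.2, 15.7 and 12.7 CPM, did not pass (1.06 ± 0.45, adjusted p = 0.0679) although its libraries did not overlap. Mylip, at 18.4, 16.8 and 26.96 against 29.99, 23.03 and 26.02 CPM, was not called (-0.35 ± 0.38, adjusted p = 0.501). Macrophage markers summed to at most 513 CPM in either group. Of the other pathway genes 6 rose and 12 fell, against 19.8% and 20.6% of all genes, so the count that rose was near the background. Nceh1 (1.87 ± 0.54), the acyl-CoA synthetase Acsl4 (1.70 ± 0.22) and Soat1 (1.57 ± 0.35) rose, and Scarb1, a receptor of high-density lipoprotein, (-1.73 ± 0.27) fell.

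The 2 steps that lead from 3D-2D to these groups can be set beside each other, with the 2 3D-2D libraries shared between them. After a further 2D phase (3D-2D-2D against 3D-2D, a comparison added after the values were seen) 19 sterol genes rose and 0 fell, with a median of 1.91, against 22.9% and 23.6% of all genes (2518 higher and 4223 lower when scaled by library totals alone, with 19 and 0 sterol genes). All 8 fatty acid genes and all 3 LXR targets rose. Tm7sf2 (3.30 ± 0.34, adjusted p = 1.42e-07), Insig1 (2.81 ± 0.29), Mvd (2.66 ± 0.35) and Scd2 (3.29 ± 0.48, adjusted p = 1.08e-05) rose the most among sterol and fatty acid genes, and Hsd17b7 was not called (0.94 ± 0.41). Srebf2 (1.23 ± 0.18) and Srebf1 (0.86 ± 0.13) rose, and 7 of 8 proliferation genes fell in the same step. Of the 9 fibroblast markers 7 rose and 0 fell, and the part of either list in the result was not tested. Idi1 (1.67 ± 0.45) was not called without 3D-2D library 1 (1.46), and Msmo1 (1.07 ± 0.39) was not without that library (0.76) or 3D-2D-2D library 3 (1.04). Elovl6 (0.64 ± 0.25) missed the threshold without any 1 of the 5 libraries (0.62 to 0.67). Fasn (0.46 ± 0.18) was not called without 3D-2D library 1 (0.40) or 2 (0.50) or 3D-2D-2D library 1 (0.46) or 3 (0.49). Neither Elovl6 (0.50) nor Fasn (0.32) was called with library totals alone. Abcg1 (1.70 ± 0.55) was not called without 3D-2D library 1 (1.92) or 2 (1.48). Among the other pathway genes 19 rose and 5 fell, led by Pltp, a phospholipid transfer protein (3.31 ± 0.42), Lpin1 (2.56 ± 0.22), the acetyl-CoA synthetase Acss2 (2.55 ± 0.42) and Acsl3 (2.13 ± 0.30).

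On the return to 3D (3D-2D-3D against 3D-2D) 14 sterol genes fell and 1 rose, with a median of -1.25, against 25% and 24.2% of all genes. Idi1 (-2.44 ± 0.44, adjusted p = 8.73e-05), Msmo1 (-1.74 ± 0.37) and Acat2 (-1.71 ± 0.39) fell the most. Insig1 was the 1 that rose (0.64 ± 0.27, adjusted p = 0.0493), and its call ended without any 1 of the 5 libraries, at 0.52 to 0.74. Hmgcs1 (-0.79 ± 0.31), Cyp51 (-0.97 ± 0.32) and Dhcr7 (-0.94 ± 0.37) were not called without 3D-2D library 2 (-0.61, -0.73 and -0.66) or 3D-2D-3D library 3 (-0.59, -0.74 and -0.78). Fdps (-1.45 ± 0.39) and Scap (0.47 ± 0.15) were not without 3D-2D library 2 (-1.23 and 0.41), nor Hmgcs1 without 3D-2D library 1 (-0.97). Srebf2 fell (-0.43 ± 0.17, adjusted p = 0.0359) and was not called without 3D-2D library 1 (-0.54) or 2 (-0.34) or 3D-2D-3D library 2 (-0.46) or 3 (-0.41). Scd1 (2.08 ± 0.20, adjusted p = 4.04e-08) and Scd2 (1.57 ± 0.44, adjusted p = 0.00507) rose on the return to 3D, Elovl6 (-1.001 ± 0.24) and Fasn (-0.47 ± 0.17) fell, and Fasn was not called without 3D-2D library 1 (-0.53) or 2 (-0.44) or 3D-2D-3D library 3 (-0.46). Abca1 (3.68 ± 0.51, adjusted p = 4.4e-06), Abcg1 (2.75 ± 0.56, adjusted p = 0.000342) and Mylip (2.18 ± 0.47, adjusted p = 0.000577) all rose, while macrophage markers summed to less in each 3D-2D-3D library (262 to 289 CPM) than in each 3D-2D library (755 and 979 CPM). Smooth muscle and pericyte markers summed to 22.4 and 22.6 CPM in 3D-2D and 111 to 176 CPM in 3D-2D-3D, and their part in the result was not tested. Hmgcs1 was also not called with the 2 groups alone (-0.79), Insig1 with a filter of 1 CPM in 3 libraries (0.62), and Hmgcs1, Dhcr7 and Srebf2 with library totals alone (-0.70, -0.85 and -0.35) or no filter (-0.77, -0.92 and -0.41). Insig1 was not with no filter (0.67) and Fasn not with library totals alone (-0.39). Other pathway genes rose in 14 cases and fell in 5, with Lpin1 (2.87 ± 0.22), the receptor LXR-alpha gene Nr1h3 (2.07 ± 0.47), Pltp (1.85 ± 0.39) and Acss2 (1.83 ± 0.40) at the front.

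At the stated time of 5 days the sterol genes were again lower in 3D. Of 20 genes 19 fell and 0 rose, with a median of -2.75, against 17.5% and 14.9% of all genes. Scaled by library totals alone, 2912 genes were higher and 1877 lower, with the sterol genes at 0 and 19. In 19 of the 20 the libraries did not overlap, which held for 21.1% of all genes in that direction. Idi1 was at 9.68, 10.5 and 11.7 CPM in 3D-5days and 114, 175 and 165 CPM in 2D-5days (-3.83 ± 0.44, adjusted p = 7.34e-07). Fdps was at 22.4, 34.1 and 39.2 against 175, 390.2 and 397 CPM (-3.33 ± 0.39, adjusted p = 9.42e-07), with 2D-5days library 1 the lowest of its group. Cyp51 was at 37.03, 32.97 and 36.6 against 184, 219 and 221 CPM (-2.55 ± 0.31, adjusted p = 1.51e-06). Stard4 was at 7.34, 6.68 and 4.97 against 46.7, 50.5 and 46.9 CPM (-2.92 ± 0.27, adjusted p = 1.86e-08). Tm7sf2 (-3.28 ± 0.30), Mvd (-2.67 ± 0.30) and Hsd17b7 (-1.57 ± 0.37) were called here, and Ebp was not (-0.39 ± 0.17). With libraries 2 and 3 alone 20 sterol genes fell (15.8% of all genes), with a median of -2.98. With the 2 groups alone and the replicate block 19 fell (20.3% of all genes), with Ebp called (-0.34) and Dhcr7 not (-1.92, against -2.07 ± 0.34 without it). Proliferation sums were 11.9 to 26.8 CPM in 3D-5days and 119.8 to 152 CPM in 2D-5days, and their part in the result was not tested.

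Srebf2 was at 131, 147 and 152 CPM in 3D-5days and 331, 409 and 398 CPM in 2D-5days (-1.40 ± 0.15, adjusted p = 2.94e-07), while Srebf1, at 154, 199 and 199 against 202, 217 and 209 CPM, was not called (-0.19 ± 0.11, adjusted p = 0.232), nor was Scap (0.25 ± 0.13). All 8 fatty acid genes fell, with a median of -1.53, against 17.5% of all genes. Fads2 was at 44.2, 59.3 and 66.5 against 223, 313 and 300.3 CPM (-2.30 ± 0.25, adjusted p = 3.51e-07), Elovl6 at 17.1, 13.1 and 14.8 against 48.8, 67.99 and 74.5 CPM (-2.09 ± 0.23, adjusted p = 4.01e-07), Scd2 at 475, 595 and 596 against 1273, 1829 and 1771 CPM (-1.55 ± 0.38, adjusted p = 0.00302) and Scd1 at 147, 136 and 139 against 471, 550.1 and 544 CPM (-1.89 ± 0.17, adjusted p = 2.17e-08). The groups did not overlap in any of these 4. Acaca (-0.34 ± 0.12) was not called without 2D-5days library 2 (-0.25) or 3 (-0.26) or 3D-5days library 1 (-0.25) or 3 (-0.37), nor with the 2 groups alone (-0.30), library totals alone (-0.20), DESeq2-type size factors (-0.32) or no filter (-0.32).

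Of the LXR targets Abcg1 alone was called at 5 days, at 151, 59.4 and 61.96 CPM in 3D-5days against 24.4, 7.58 and 8.14 CPM in 2D-5days (2.76 ± 0.48, adjusted p = 0.000112, and 3.53 without 2D-5days library 1). Abca1 was at 539, 177 and 169.7 against 257, 104 and 106 CPM and did not pass (0.93 ± 0.39, adjusted p = 0.075). Within each group Abca1 was highest in library 1, and with the replicate block it was called (0.88). Mylip was at 23.4, 23.8 and 25.9 and 21.2, 26.2 and 25.4 CPM and was not called (0.00 ± 0.39). Macrophage markers summed to 12474, 3288 and 3921 CPM in 3D-5days and 3259.5, 797 and 789 CPM in 2D-5days, and their part in the result was not tested. Of the other pathway genes 6 rose and 12 fell, against 14.9% and 17.5% of all genes, so the count that rose was near the background. Nceh1 (2.16 ± 0.54) and Lipa (1.10 ± 0.35), higher, and Scarb1 (-1.98 ± 0.28) and Aacs, an acetoacetyl-CoA synthetase (-1.32 ± 0.16), lower, were at the front. Without 3D-5days library 1, the library with the most macrophage markers, Nceh1 (1.05) and Lipa (0.38) were not called, and Lipa was not without 2D-5days library 2 (0.97) or 3 (0.95). Without 2D-5days library 1 Nceh1 was at 3.20.

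For some of these genes the difference between 3D and 2D was not the same at 5 days as without a stated time. In the test of that difference itself 9 sterol genes, 4 fatty acid genes and 1 LXR target were called in the direction of a more negative value at 5 days, and 0 in the other, against 13.2% and 12.3% of all genes. Tm7sf2 (-3.54 ± 0.41, adjusted p = 3.35e-06), Hsd17b7 (-2.40 ± 0.52, adjusted p = 0.00197) and Scd1 (-2.19 ± 0.24, adjusted p = 2.18e-06) differed the most. With these 4 groups alone and the replicate block, Tm7sf2 (-3.45), Nsdhl (-2.01), Sc5d (-1.28), Scd1 (-2.12), Abca1 (-1.33) and Mylip (-1.99) were called lower and Acaca higher (0.41), against 12% and 11.2% of all genes, and Hsd17b7 was not called (-2.27). The 5-day groups were also set against the groups without a stated time (comparisons added after the values were seen). The time of the latter is unknown, so these pairs are no time course. Gene counts were 8509987 to 11280045 in the 5-day libraries and 12289359 to 28330718 in 2D and 3D. Time and other differences between these sets of libraries cannot be told apart. In 2D-5days against 2D 20 sterol genes were higher and 0 lower, with a median of 1.55, against 22.3% of all genes in each direction. Tm7sf2 (3.57 ± 0.30, adjusted p = 1.17e-08, from 3.33, 3.86 and 2.43 to 17.97, 44.98 and 49.96 CPM), Mvd (2.31 ± 0.29) and Nsdhl (2.27 ± 0.27) rose the most, and all 8 proliferation genes fell. Without the low 2D library 3, Idi1 (0.79), Cyp51 (0.39), Hsd17b7 (0.87), Ebp (0.38) and Stard4 (0.31) were not called, and the same 5 were not without 2D-5days library 2, at 1.08, 0.75, 0.99, 0.48 and 0.64. Without 2D-5days library 3 Cyp51 (0.75), Ebp (0.39) and Stard4 (0.69) were not. With the 2 groups alone Idi1 (1.17), Fdps (1.70), Cyp51 (0.76), Ebp (0.51), Acat2 (1.79), Stard4 (0.64), Scap (0.46) and Fads2 (1.08) were not called, nor was Cyp51 with library totals alone (0.70) or no filter (0.77). Srebf2 (0.85 ± 0.15), Srebf1 (0.40 ± 0.11) and Scap (0.45 ± 0.13, and 0.35, not called, without 2D library 1) rose. Mylip was the LXR target that rose (1.94 ± 0.41, adjusted p = 0.000556). Among fatty acid genes 5 rose and 0 fell, with Scd1 first (1.24 ± 0.17). Of the 35 other pathway genes 16 rose and 3 fell, led by Pltp (3.01 ± 0.35), Acss2 (2.49 ± 0.36), Lpin1 (2.43 ± 0.19) and Cyp27a1 (1.88 ± 0.33), and Pltp was at 3.86 without 2D library 3.

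Between the 3D groups with and without a stated time few of these genes were called. Between 3D-5days and 3D 0 sterol genes rose and 1 fell, Hsd17b7 (-1.33 ± 0.37, adjusted p = 0.025), against 4.52% and 5.88% of all genes (420 higher and 1093 lower when scaled by library totals alone, with 0 and 1 sterol genes), with a median of 0.33. Hsd17b7 was at -0.58 without 3D library 3, at -1.16 without 3D-5days library 2 and at -1.15 without 3D-5days library 3, not called in any of them. Srebf2 (0.91 ± 0.15, adjusted p = 0.000745) and Srebf1 (0.70 ± 0.11, adjusted p = 0.000549) rose. Fasn (0.59 ± 0.16) and Acaca (0.52 ± 0.12) rose and Scd1 (-0.95 ± 0.17, adjusted p = 0.00121) fell. Fasn was not called without 3D library 1 (0.47) or 2 (0.47) or 3D-5days library 2 (0.56) or 3 (0.59), and Acaca without 3D-5days library 2 (0.46). With the 2 groups alone Hsd17b7 (-1.32), Srebf1 (0.71), Fasn (0.60), Acaca (0.52) and Scd1 (-0.94) were not called. Of the LXR targets 0 were called by edgeR or DESeq2, and 1 had an unadjusted p under 0.05 in each, with Abca1 at -0.81 ± 0.39. Of the other pathway genes 6 rose and 0 fell, led by Acss2 (1.70 ± 0.34), Pltp (1.40 ± 0.33), Acsl3 (0.93 ± 0.25) and Gpam (0.91 ± 0.27). Acsl3 was not called without 3D library 1 (0.84) or 2 (0.84) or 3D-5days library 2 (0.87) or 3 (0.83), and Gpam not without those (0.91, 1.02, 0.78 and 0.85) or 3D library 3 (0.83).

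Between substrates of different stiffness none of these genes was called without the replicate block. In each of the 3 pairs of substrates edgeR called 0 members and 0 of 14036 genes (0% in either direction). DESeq2, which tested 19820 genes, called 0 as well. At an unadjusted p under 0.05, edgeR gave 82 genes for 8 against 0.5 kPa, 241 for 64 against 8 kPa and 175 for 64 against 0.5 kPa, with 1, 0 and 0 sterol genes, and DESeq2 gave 104, 277 and 175. The medians of the sterol genes were -0.22, 0.19 and -0.04. Idi1 was at 23.5, 16.3 and 45.2 CPM on 0.5 kPa, 19.1, 18.8 and 28.97 on 8 kPa and 22.4, 25.2 and 36.6 CPM on 64 kPa, with library 3 highest on each. Its difference was -0.34 ± 0.40, 0.33 ± 0.40 and -0.01 ± 0.40 in the same 3 pairs. With the 2 groups alone and the replicate block, 1 of the 20 sterol genes was called between 64 and 8 kPa, Idi1, which was higher on 64 kPa (0.34, adjusted p = 0.0299). In that fit 3.12% of all genes were higher and 1.7% lower, so the count of 1 was near the background. At an unadjusted p under 0.05 it held 9 of 20 sterol genes and 2313 of 12610 genes. Blocked fits of 8 and of 64 against 0.5 kPa held 3 and 1 sterol genes, and 342 of 12668 and 763 of 12568 genes. In the fit over all libraries 18 of 20 sterol genes were above zero for 64 against 8 kPa. For 8 and for 64 against 0.5 kPa 20 and 17 were below zero. The median of all genes was -0.005 in the first of these pairs and -0.001 and -0.007 in the others. The 3 pairs share libraries. Library 3 on 0.5 kPa had a sterol level of 33.9, against 23.7 and 20.2 in libraries 1 and 2. Without it the sterol medians were 0.007 for 8 and 0.18 for 64 against 0.5 kPa. Abcg1 was at 22.8, 21.2 and 8.86, 19.8, 20.6 and 11.8 and 22.9, 23.6 and 9.60 CPM on the 3 substrates, with library 3 lowest on each. Macrophage markers in library 3 (755, 463 and 648 CPM) lay below those of library 1 on each substrate (1574, 1652 and 2814 CPM), with library 2 at 659, 1490.1 and 2755 CPM, and their part in the Abcg1 levels was not tested.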

How the data were processed

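Per the labels' protocols, RNA of cardiac fibroblasts was sequenced; 2 ATAC-seq libraries were not analysed here. The deposited table holds raw read counts per gene made by the authors, 24421 genes in 29 libraries, with 5 summary lines left out. TopHat, HTSeq, Bowtie, MACS2 and mm10 are named per the submitters' processing notes. Neither their roles and versions nor the annotation or strandedness is given in the sources used here. Of the members 9 overlap another gene of the RefSeq table. Reads that HTSeq did not assign as unique made up 14.0% to 28.4% of a library.

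Counts were scaled by TMM (factors 0.868 to 1.095), filtered with filterByExpr (14036 genes) and tested with edgeR 4.0.16's robust quasi-likelihood test in R 4.3.3 over all 29 libraries, with Benjamini-Hochberg adjustment over all genes (threshold 0.05, prior count 2 for log2 values). A standard error is the log2 fold change divided by the root of its F. The scripts were tested on simulated data. DESeq2 1.42.0, other scalings and filters, the compared groups alone, a replicate block, and fits without each library were alternatives. Same-numbered libraries deviated together in 3D vs 2D (correlations 0.141, 0.230 and 0.233), at 5 days (0.572, 0.288 and 0.337) and between substrates (0.191 to 0.753), so blocked values stand beside those results where they change a call. Libraries 1 and 2 also did so across numbers in 3D vs 2D (0.165 and 0.186), and libraries 2 and 3 at 5 days (0.317 and 0.346). The numbers therefore need not mark a pairing. Promoters are RefSeq's, build GRCm38.p6.

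The 34 members and all lists were chosen with earlier results of these data known. Values in every library are given for the 4 sterol and 3 fatty acid genes with the largest called change in 3D vs 2D, all LXR targets and regulators; other pathway genes are named where called, up to 4 per comparison by size.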

Additional observations from a re-analysis of the deposited data

Results flagged for a closer look

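The difference between 3D and 2D differed between the 5-day cultures and those without a stated time in 14 of the 34 genes, by edgeR's test of the difference of the 2 fold changes, and in each it was more negative at 5 days. Of all genes 13.2% were called with a more negative value in that test and 12.3% with a more positive one. On the log2 scale the sterol genes among them were Hmgcs1 (-1.31, adjusted p = 0.0208), Pmvk (-1.32, adjusted p = 0.0376), Mvd (-2.02, adjusted p = 0.0011), Lss (-1.14, adjusted p = 0.0285), Tm7sf2 (-3.54, adjusted p = 3.35e-06), Nsdhl (-1.96, adjusted p = 0.000672), Hsd17b7 (-2.40, adjusted p = 0.00197), Sc5d (-1.27, adjusted p = 0.000346) and Insig1 (-1.33, adjusted p = 0.00541). The fatty acid genes were Acly (-0.80, adjusted p = 0.000488), Scd1 (-2.19, adjusted p = 2.18e-06), Fads1 (-0.81, adjusted p = 0.00793) and Fads2 (-0.99, adjusted p = 0.0376), and the LXR target was Mylip (-2.01, adjusted p = 0.0107).

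Tm7sf2 was not called between 3D and 2D (0.26 ± 0.28) and fell between 3D-5days and 2D-5days (-3.28 ± 0.30). Scd1 likewise was not called in the first (0.30 ± 0.17) and fell in the second (-1.89 ± 0.17). Mylip rose in the first (2.01 ± 0.40) and was not called in the second (0.00 ± 0.39). Hsd17b7 was at -1.61 without 3D library 3, called. The calls of Hmgcs1, Pmvk, Lss and Fads2 ended in 1, 7, 5 and 6 of the 12 fits that left out 1 library. Without 3D-5days library 2, for example, Hmgcs1 was at -1.19, Pmvk at -1.14 and Fads2 at -0.99, and without 2D-5days library 2 Lss was at -1.04. With these 4 groups alone and the replicate block 9 of the 14 were not called, and Acaca was called in the other direction (0.41). In that fit 12% of all genes were called lower and 11.2% higher.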

How the results depend on the processing

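Each alternative changed 1 choice, except that the replicate block was fitted on the compared groups alone and DESeq2 tested more genes; where a count moved the cause was not tested. Scaling by library totals alone moved the median of all genes to 0.16 in 3D vs 2D, 0.22 in 3D-2D-3D vs 3D-2D-2D and 0.13 at 5 days.

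In 3D vs 2D 16 sterol and 7 fatty acid genes were called over all libraries, 13 and 6 with the compared groups alone, and 10 and 3 when the replicate block was added. At 5 days the LXR targets were 1, 1 and 2 in that order. In 64 against 8 kPa the block gave 1 sterol gene and 608 genes, and in 8 against 0.5 kPa 2 genes. The other fits gave 0, but for 1 gene in 64 against 8 kPa with libraries 1 and 2 of each substrate. The next counts are of sterol, fatty acid and LXR genes for the difference between the 3D effects with and without a stated time. They were 9, 4 and 1 over all libraries, 5, 2 and 1 with the groups alone and 3, 2 and 2 with the block. With the block 1 of the 2 fatty acid genes was called in the other direction. Where same-numbered libraries did not deviate together, the block is no pairing. There it gave 14 sterol genes, 2 LXR targets and 6264 genes in 3D-2D vs 2D (0, 1 and 523 with the groups alone) and 2 LXR targets in 3D-2D-3D vs 3D-2D-2D (also 2 with the groups alone). It gave 8 sterol genes and 3630 genes in 2D-5days vs 2D (14 and 4596 with the groups alone, 20 and 6266 over all libraries), and 0 sterol genes, 0 fatty acid genes and 24 genes in 3D-5days vs 3D (0, 0 and 65 with the groups alone).

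Fitting the compared groups alone gave 3 fatty acid genes in place of 6 in 3D-2D vs 3D. In 3D-2D vs 2D it gave 0 sterol genes, 1 fatty acid gene and 523 genes in place of 2, 4 and 2019, and in 3D-2D-3D vs 3D-2D-2D 2 LXR targets, as did library totals alone, in place of 1. It gave 2991 genes in place of 4548 at 5 days. For the difference between the 3D effects it gave 5 sterol genes, 2 fatty acid genes and 2156 genes in place of 9, 4 and 3583. In 3D-5days vs 3D it gave 0, 0 and 65 in place of 1, 3 and 1460.0. DESeq2 gave 2 LXR targets in place of 1 at 5 days.

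Libraries 1 and 2 alone gave 10 sterol genes and 3534 genes in 3D-2D vs 2D, and 1 gene in 64 against 8 kPa. Library 3 of each group alone, in 3D vs 2D, gave 5 sterol genes, 4 fatty acid genes and 4929 genes (7576 over all libraries) and reversed Acsl3 (0.28), Fads2 (0.10), Fdft1 (0.50), Insig1 (0.59), Scd2 (1.29), Soat1 (-0.35) and Srebf1 (0.017).

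Leaving out 1 library at a time gave 0 to 8 sterol genes, 0 to 4 fatty acid genes, 0 to 1 LXR targets and 171 to 2947 genes in 3D-2D vs 2D. It gave 0 to 1 LXR targets in 3D-2D-3D vs 3D-2D-2D and 10 to 14 sterol genes in 3D-2D-3D vs 3D-2D (15 over all libraries). It gave 1 to 2 LXR targets at 5 days, for the difference between the 3D effects and in 2D-5days vs 2D. In 3D-5days vs 3D it gave 0 to 2 sterol genes, 1 to 3 fatty acid genes, 0 to 1 LXR targets and 559 to 2421 genes. A 3D-2D arm left with 1 library was assumed to vary like the other groups.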

Other observations

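Apoe is not a member and was chosen after its values were seen. This apolipoprotein, which accepts exported cholesterol, was at 142, 150.2 and 310.2 CPM in 2D and 2131, 1998 and 497 CPM in 3D (2.94 ± 0.52, adjusted p = 6.5e-05, and 2.87 and not called with the replicate block), with 3D library 3, which held the fewest macrophage markers of any library, the lowest of its group and above each 2D library. It was at 3068, 4967 and 5745 CPM in 3D-5days and 987, 876 and 908 CPM in 2D-5days (2.31 ± 0.50, adjusted p = 0.00117). Library 1, which had the most macrophage markers in both 5-day groups, was the highest for Apoe in 2D-5days and the lowest in 3D-5days. In 3D-2D-3D Apoe was at 302, 304 and 171 CPM, below 3D-2D-2D at 708, 745 and 695 CPM (-1.47 ± 0.49, adjusted p = 0.0205), while Abca1 was higher there (1.18 ± 0.39). Apoe was not called in that comparison without 3D-2D-3D library 3 (-1.23), nor Abca1 without 3D-2D-3D library 2 (1.10) or 3D-2D-2D library 1 (1.19) or 2 (1.14).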
